A study of Luscinia megarhynchos and Luscinia luscinia with 4 samples.

Results

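The genes described here are entries listed for the germline-restricted chromosome (GRC) of the thrush nightingale, *L. luscinia*. Each had a deposited FPKM above 0 in its ovary or in its testis. Of 799 genes listed in the deposited table, 180 met this rule. Of these, 92 belong to the 192 genes that the study annotated on the GRCs, and 88 are other entries of the table, outside that annotated set. The study annotated only genes with a minimum share of the coding region on a GRC, to limit wrong gene names from short sequences. The 88 other entries are less certain as GRC genes and by name, and this was not tested. In the table, 267 genes had a value above 0 in either gonad of the common nightingale, *L. megarhynchos*. The ovary came from the adult wild female whose other tissues gave the somatic reference genome of the species, and the testis came from an adult wild male. There was 1 mRNA library a tissue. Tissue, sex and bird therefore cannot be told apart, no p-value was computed, and every statement is about these 2 libraries. Neither group had any treatment or engineered allele.

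The GRC is a chromosome that songbirds keep in germ cells and eliminate from somatic cells early in development. It normally passes to the next generation through the egg. In males it is normally ejected during meiosis and ends in a micronucleus that is degraded. Exceptions are known, and the paper cites work by which paternal inheritance of the GRC is possible. Its genes are copies of genes on the ordinary (A) chromosomes, often incomplete and often present many times over. An RNA read can be given to such a copy only where its sequence differs from the A-chromosomal gene. A gonad holds germ cells and somatic cells in unknown shares, so more GRC-bearing cells and more RNA per cell cannot be told apart in these libraries. The copy content of the GRC also varies between birds, so a gene at 0 may be silent or may be missing from that bird. None of the 16 markers of oocytes, sperm or somatic gonad cells that were looked for is listed in the table, which holds GRC genes, so the tissue labels could not be checked with it.

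For 3 genes that had reads in the ovary and 0 in the testis, the oligonucleotides with which the study amplified the GRC copy from DNA are shown, because they are the designed sequences tied to these copies. CPEB1 binds the cytoplasmic polyadenylation element of mRNAs and controls stored maternal mRNA in oocytes, IGF2 is an insulin-like growth factor, and SYCP1 forms the transverse filaments of the synaptonemal complex. Their sequences run 5′ to 3′, and their positions in the GRC assembly are not given in the sources used here.
CPEB1_div_F: agtacgagaaccccatctattct
CPEB1_div_R: caaaatgacgaaaagcatcaatcaatt
XP_005046862_p1_F (IGF2): acttactgtgctaagtctgtcaa
XP_005046862_p1_R (IGF2): ttcctctgccgcccacaa
XP_016160863_p1_F (SYCP1): tggagattgatgaaagcgatggtgt
XP_016160863_p1_R (SYCP1): gactgatctgggagtcctttaatgc

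FPKM is a level per kilobase of coding sequence, scaled to the reads of the library. As deposited it also carries the share of the gene found on the GRC as a multiplier, which cancels when the ovary is divided by the testis. For the 92 members whose coding length and share were known, the whole reads behind each value could be recovered. They summed to 10627 reads in the ovary, of 36650197 in that library, and to 25975 reads in the testis, of 49987547. Both library totals were inferred from the same FPKM values. In reads per 1000000 library reads (RPM) this is 290 RPM in the ovary and 520 RPM in the testis, a testis over ovary ratio of 1.79. For the other 88 members only the deposited FPKM was known, and where both tissues were above 0 the ratio of both values gave the smallest pair of whole reads that fits it. Many genes rested on little: 14 genes had 1 read in the ovary, 6 genes had 1 read in the testis, and 7 genes had 1 read in both tissues together. A count of 10 or more was reached by 41 genes in the ovary and by 46 genes in the testis.

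Of the 180 members, 140 were above 0 in the ovary and 135 in the testis. Within the annotated set these were 81 in the ovary and 71 in the testis. Both tissues were above 0 for 95 genes, the ovary alone for 45 and the testis alone for 40. A gene was counted as higher in a tissue when its FPKM ratio reached 4, a rule of size and not a test. Against a 0, the ratio had to reach 4 with the 0 replaced by 3 reads, the limit that a count of 0 allows. The 3 reads are the one floor used for every bound ("at least"), and the lower end of the exact 95% counting interval of such a gene lies somewhat under it. A ratio or such a bound could be had for 127 genes, of which 35 lie outside the annotated set. The ovary was higher for 24 of them (18.9%), the testis was higher for 30 (23.6%), and 73 met neither condition. The remaining 53 genes were listed at 0 in 1 tissue with no recovered reads and were not counted. When each library was scaled to its own reads on GRC genes instead, the counts were 30 higher in the ovary and 23 higher in the testis, and when the ratios were centred on their median they were 27 and 23. The genes counted in the ovary were kept under both scalings, as were 23 of the 30 counted in the testis.

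**Figure D1:**
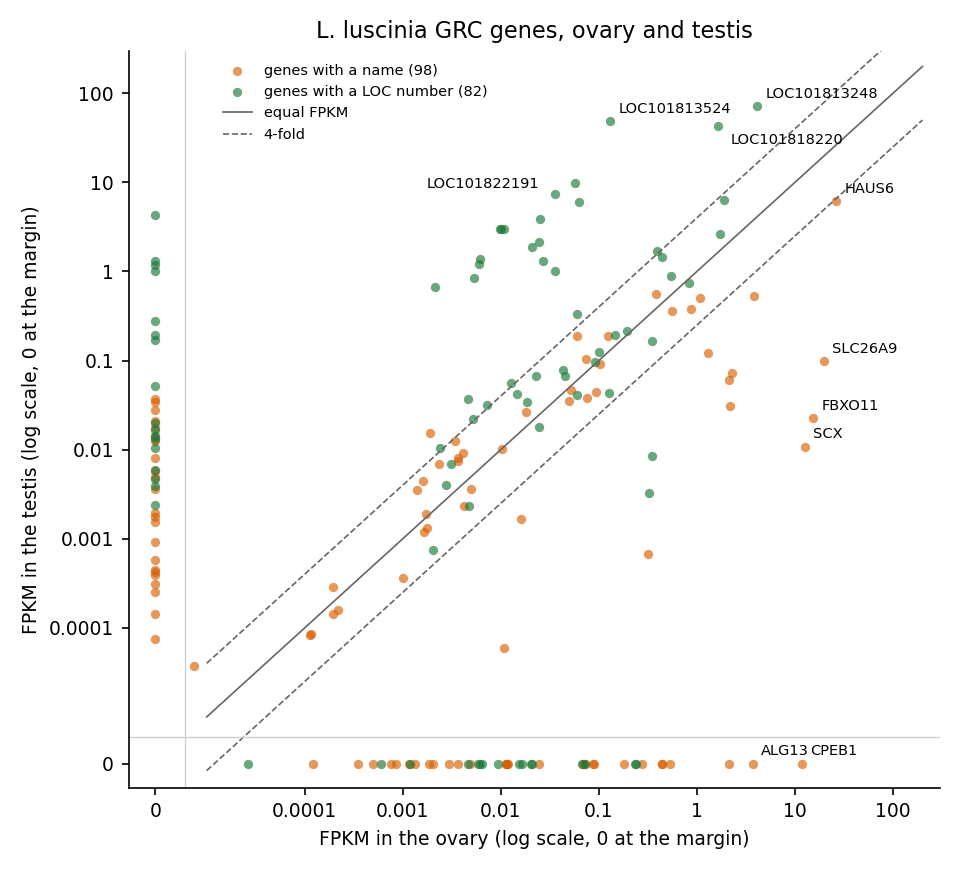
Deposited FPKM in the ovary (x axis) and in the testis (y axis) of *L. luscinia*, both on log scales with 0 at the margin. Each point is 1 of 180 genes, in orange for the 98 genes with a name and in green for the 82 genes listed under a LOC number. The solid line is equality and the dashed lines are 4-fold. Named genes such as SLC26A9 (19.8 and 0.0990) lie below the lines, and LOC genes such as LOC101813524 (0.131 and 48.3) lie above them.

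The side on which a gene fell went with whether it is listed under a gene name or a LOC number. Genes that the flycatcher annotation lists under a LOC number, some of them similar to known genes, held 660 of the recovered reads in the ovary. This was a share of 6.21% (exact Clopper-Pearson 95% interval 5.76% to 6.69%). In the testis they held 24590 reads, a share of 94.7% (94.4% to 94.9%). These intervals, like all intervals here, cover counting error only. Of the 64 LOC genes with a ratio or bound, 3 were higher in the ovary, 28 were higher in the testis and 33 were neither. Of the 63 genes with a name, 21 were higher in the ovary, 2 were higher in the testis and 40 were neither. Among genes above 0 in both tissues, the median log2 ratio of ovary over testis was -2.09 for 49 LOC genes and 0.45 for 46 named genes, beside -0.55 for all 95. Scaling to the reads on GRC genes raised each log2 ratio by 0.84, to medians of -1.25 for LOC genes, 1.29 for named genes and 0.29 for all. With at least 10 reads in both tissues together, 1 of 35 LOC genes was higher in the ovary and 19 in the testis, while 18 of 29 named genes were higher in the ovary and 0 in the testis. At 10-fold the LOC genes numbered 2 in the ovary and 21 in the testis, and the named genes 14 in the ovary and 0 in the testis.

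Among genes with recovered reads, the split of reads did not rest on LOC101813524 or HAUS6 alone. LOC101817233, outside the annotated set, was not in these totals. It needs at least 881 reads in the ovary and 12 in the testis. The LOC genes in the totals had 660 and 24590 reads. How the shares move with LOC101817233 was not computed. Without LOC101813524, the gene with most recovered reads in the testis, LOC genes held 6.07% of the recovered reads in the ovary and 92.3% in the testis. Without HAUS6, which alone held 63.7% of the reads on named genes in the testis, the LOC share was 8.37% in the ovary and 98.0% in the testis. Named genes with recovered reads had 272 RPM in the ovary and 27.7 in the testis, a ratio of 9.82 that became 19.6 without HAUS6. LOC genes with recovered reads had 18.0 RPM in the ovary and 492 in the testis, a testis over ovary ratio of 27.3. LOC101817233 and the other members outside the annotated set are not in these levels.

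The recovered reads of both libraries were carried by a few genes. The 5 genes with most reads held 71.3% of the recovered reads in the ovary (70.4% to 72.2%) and 72.9% in the testis (72.4% to 73.5%). No gene was among these 5 in both tissues. In the ovary they were HAUS6, SLC26A9, FBXO11, SCX and ALG13, all with a name. LOC101817233, which had no recovered reads and was not ranked, needs at least 881 reads in the ovary. That is more than SCX (857) or ALG13 (718) had. In the testis they were LOC101813524, LOC101813248, LOC101822191, LOC101818220 and LOC107603907.

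HAUS6 is a subunit of augmin, the complex that nucleates microtubules from the sides of existing ones in the mitotic and meiotic spindle. It had the highest FPKM of the ovary, 26.2 from 2739 reads, and an FPKM of 6.18 from 882 reads in the testis. The ratio was 4.24, with a counting interval of 3.92 to 4.57 that includes the 4-fold limit. HAUS6 was the one named gene among the 10 highest of the testis. A further HAUS6 identifier, with no recovered reads, went the other way at very low FPKM, 0.00367 in the ovary and 0.00753 in the testis, from at least 5 and 14 reads.

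SLC26A9, a chloride and bicarbonate transporter of epithelia, had 1763 reads in the ovary and 12 in the testis, a ratio of 200 (114 to 389). FBXO11 is the substrate-binding subunit of an SCF ubiquitin ligase. It had 1500 reads in the ovary and 3 in the testis, a ratio of 682 (233 to 3311). SCX (scleraxis), a transcription factor of tendon progenitors, had 857 reads in the ovary and 1 in the testis. Its ratio of 1169 was the largest of any gene with recovered reads, and the single testis read left an interval of 209 to 46221. Each of these genes was near or at the top of the ovary and near the limit of detection in the testis.

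ALG13 is part of the enzyme that adds the second N-acetylglucosamine in the making of the N-glycan precursor. It had 718 reads in the ovary and 0 in the testis, so with 3 reads in place of the 0 it was at least 326-fold higher in the ovary (lower end of the counting interval 265). CPEB1 (XP_005051706), whose primers stand above, had 594 reads in the ovary at an FPKM of 11.8 and 0 reads in the testis, at least 270-fold higher in the ovary (lower end 219). A further CPEB1 identifier (XP_005051707) had an FPKM of 0.0726 in the ovary and was listed at 0 in the testis. IGF2 had 350 reads in the ovary and 0 in the testis, at least 159-fold higher in the ovary (lower end 129). The limit set by 0 testis reads was 0.0600 RPM, whereas CPEB1 and IGF2 had 16.2 and 9.55 RPM in the ovary.

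**Figure D2:**
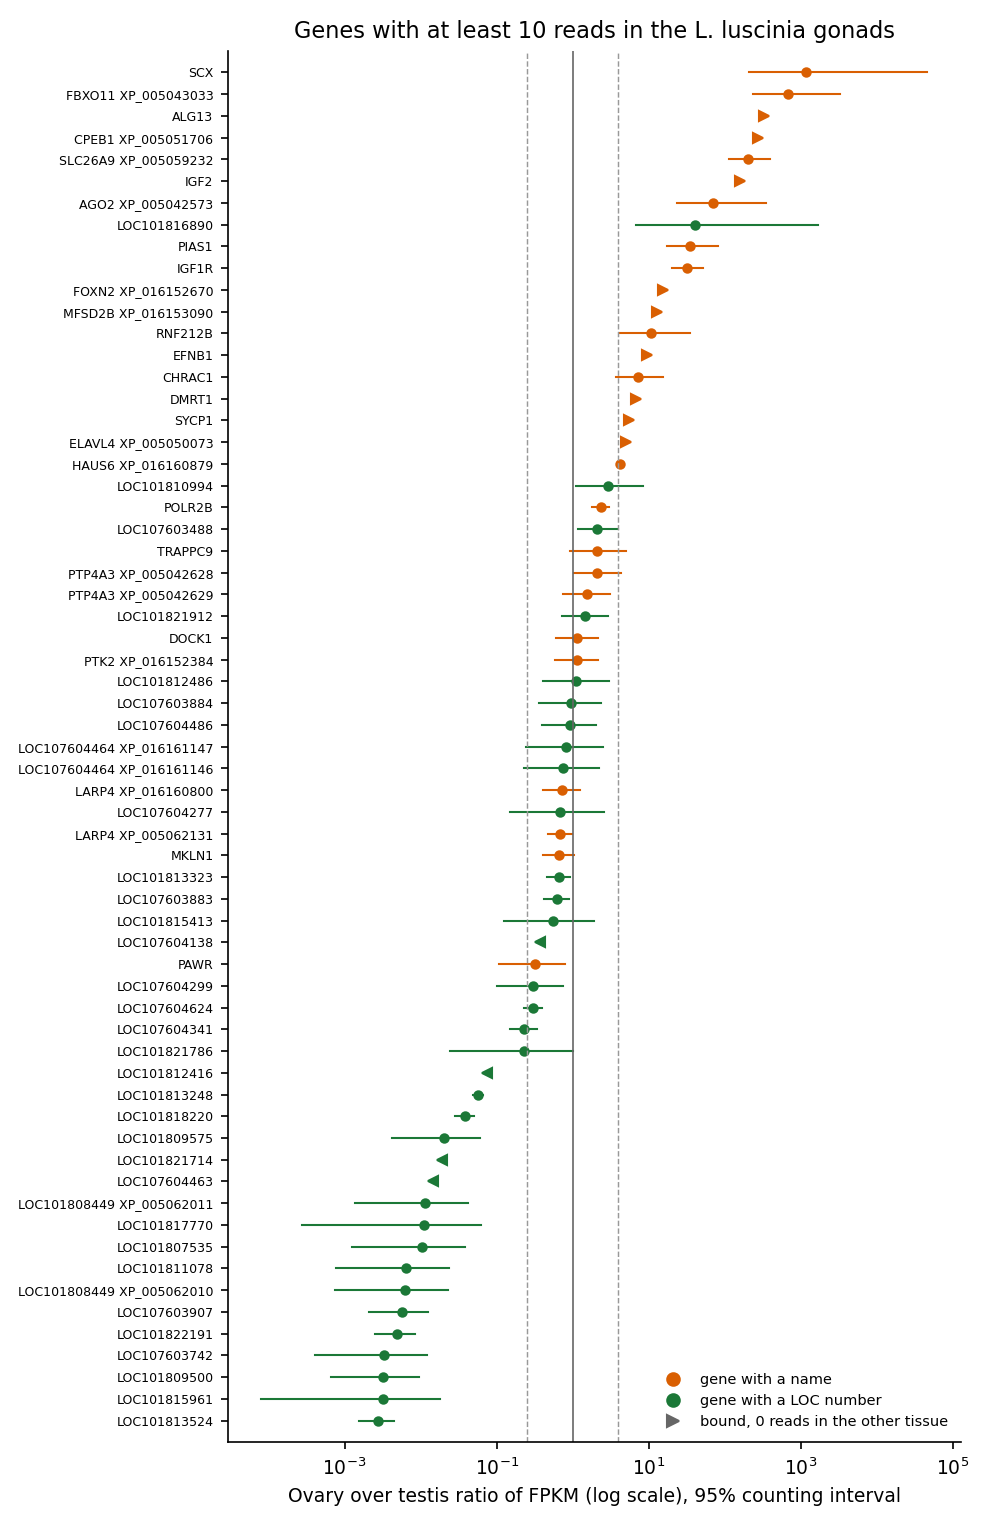
Ratio of ovary to testis FPKM (x axis, log scale) for 63 genes with at least 10 recovered reads in both tissues together, ordered by ratio. Points are ratios with 95% counting intervals, triangles are bounds for genes with 0 reads in 1 tissue, orange marks genes with a name and green genes with a LOC number, and the dashed lines are 4-fold. The upper end holds named genes up to SCX at 1169, and the lower end holds LOC genes down to LOC101813524 at 0.00272.

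Meiosis and germ cell genes came from a list of 22 symbols, of which 4 were members. RNF212B, a RING-finger protein of meiotic crossover sites, had 39 reads in the ovary and 5 in the testis, a ratio of 10.6 (4.19 to 34.6). DMRT1, the Z-linked transcription factor needed for testis formation in the chicken, had 15 reads in the ovary and 0 in the testis, at least 6.82-fold higher in the ovary. SYCP1 had 12 reads in the ovary and 0 in the testis, at least 5.46-fold higher, but the lower end of its counting interval was 3.79, under the 4-fold limit. MSH4, a MutS homologue that works in meiotic crossovers, was the exception. It was listed at 0 in the ovary and at an FPKM of 0.0371 in the testis, with no recovered reads. Of the 3 genes with a ratio or bound, 3 were higher in the ovary, where 18.9% of all genes and 33.3% of named genes were. The list had 66 reads in the ovary and 5 in the testis.

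The RNA-binding regulators split within the list. Besides CPEB1, AGO2 (XP_005042573), the Argonaute protein that cleaves RNA targets, had 154 reads in the ovary and 3 in the testis, a ratio of 70.0 (23.5 to 343). ELAVL4, an RNA-stabilising protein best known from neurons, had 11 reads in the ovary and 0 in the testis, at least 5.0-fold higher, with a lower end of 3.42 that is under the 4-fold limit. LARP4, which binds poly(A) and the poly(A)-binding protein, was not on the ovary side. Its identifier XP_005062131 had 50 reads in the ovary and 100 in the testis, a ratio of 0.682 (0.476 to 0.967), and XP_016160800 had 21 and 40, a ratio of 0.716 (0.401 to 1.24). Scaled to the reads on GRC genes, both ratios fell on the other side of equality, at 1.22 and 1.28. Over the list, 3 of 6 identifiers with a ratio or bound were higher in the ovary and 0 in the testis, beside 18.9% and 23.6% of all genes and 33.3% and 3.17% of named genes.

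Among genes of the spindle, replication, transcription and chromatin, 4 of 8 identifiers were higher in the ovary and 0 in the testis. These stand beside the same shares of 18.9% and 23.6% of all genes. HAUS6 and SCX have been given. CHRAC1, a histone-fold subunit of a chromatin remodelling complex, had 58 reads in the ovary and 11 in the testis, a ratio of 7.19 (3.74 to 15.2). FOXN2, a forkhead transcription factor, had 34 reads in the ovary and 0 in the testis, at least 15.5-fold higher. POLR2B, the second largest subunit of RNA polymerase II, was found in both tissues, with 170 reads in the ovary and 99 in the testis and a ratio of 2.34 (1.82 to 3.03). MKLN1 (muskelin), part of a ubiquitin ligase, had 29 reads in the ovary and 60 in the testis, a ratio of 0.659 (0.408 to 1.04) that was 1.18 when scaled to the reads on GRC genes. On that scale POLR2B had a ratio of 4.20. GLYR1 had 1 read in the ovary and 0 in the testis.

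Of the insulin-like growth factor pathway, the ligand IGF2 and a receptor were both higher in the ovary. IGF1R, the receptor tyrosine kinase that binds IGF1 and IGF2, had 462 reads in the ovary and 20 in the testis, a ratio of 31.5 (20.2 to 52.1). PIAS1, a SUMO ligase, had 203 reads in the ovary and 8 in the testis, a ratio of 34.6 (17.2 to 81.3). EFNB1, a membrane-bound ligand of Eph receptors, had 21 reads in the ovary and 0 in the testis, at least 9.55-fold higher. IGF2, IGF1R, PIAS1 and EFNB1 were the 4 ovary-higher genes of 19 signalling identifiers. None was higher in the testis and 15 were neither. Counted by identifier, the ovary count is near the share of 18.9% over all genes and under the 33.3% over named genes. The 19 identifiers belong to 14 symbols, and PTK2 and PTP4A3 have several each, all neither. By symbol the ovary share is therefore higher.

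Several signalling genes had ratios nearer to equality. PTK2 (focal adhesion kinase, XP_016152384) had 19 reads in the ovary and 23 in the testis, a ratio of 1.13 (0.580 to 2.16). DOCK1, an exchange factor for Rac, had 20 reads in the ovary and 24 in the testis, a ratio of 1.14 (0.595 to 2.15). The PTP4A3 phosphatase had 23 reads in the ovary and 15 in the testis at XP_005042628, a ratio of 2.09 (1.05 to 4.31), and 19 and 17 at XP_005042629, a ratio of 1.52 (0.750 to 3.12). PTPN2, a tyrosine phosphatase, had 1 read in the ovary and 5 in the testis, a ratio of 0.273 (0.00577 to 2.44). PAWR, a pro-apoptotic regulator, leaned to the testis with 6 reads in the ovary and 26 in the testis, a testis over ovary ratio of 3.18 (1.28 to 9.44). The counting intervals of PTK2 and DOCK1 stayed within 4-fold on both sides.

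Of the transport and membrane genes, SLC26A9 and MFSD2B were higher in the ovary. MFSD2B exports sphingosine-1-phosphate from red blood cells and platelets in mammals, and had 28 reads in the ovary and 0 in the testis, at least 12.7-fold higher. TRAPPC9, a subunit of a membrane trafficking complex, had 17 reads in the ovary and 11 in the testis, a ratio of 2.11 (0.931 to 4.98). The list had 1814 reads in the ovary and 24 in the testis, of which SLC26A9 gave 1763 and 12. The protein modification list, with FBXO11, ALG13 and TRAPPC9 as members, had 2235 reads in the ovary and 14 in the testis.

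Over all 6 lists, 43 of 46 identifiers had a ratio or bound, of which 18 (41.9%) were higher in the ovary, 25 were neither and 0 were higher in the testis. Over all genes the ovary share was 18.9%, and over the named genes from which the lists are drawn it was 33.3%. The lists hold named genes only, so their side is not independent of the split between named and LOC genes. They were chosen with earlier results of these data known, and some of their symbols are not in the table. On the scale of reads on GRC genes, named genes numbered 25 in the ovary and 1 in the testis, and LOC genes 5 in the ovary and 22 in the testis.

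**Figure D3:**
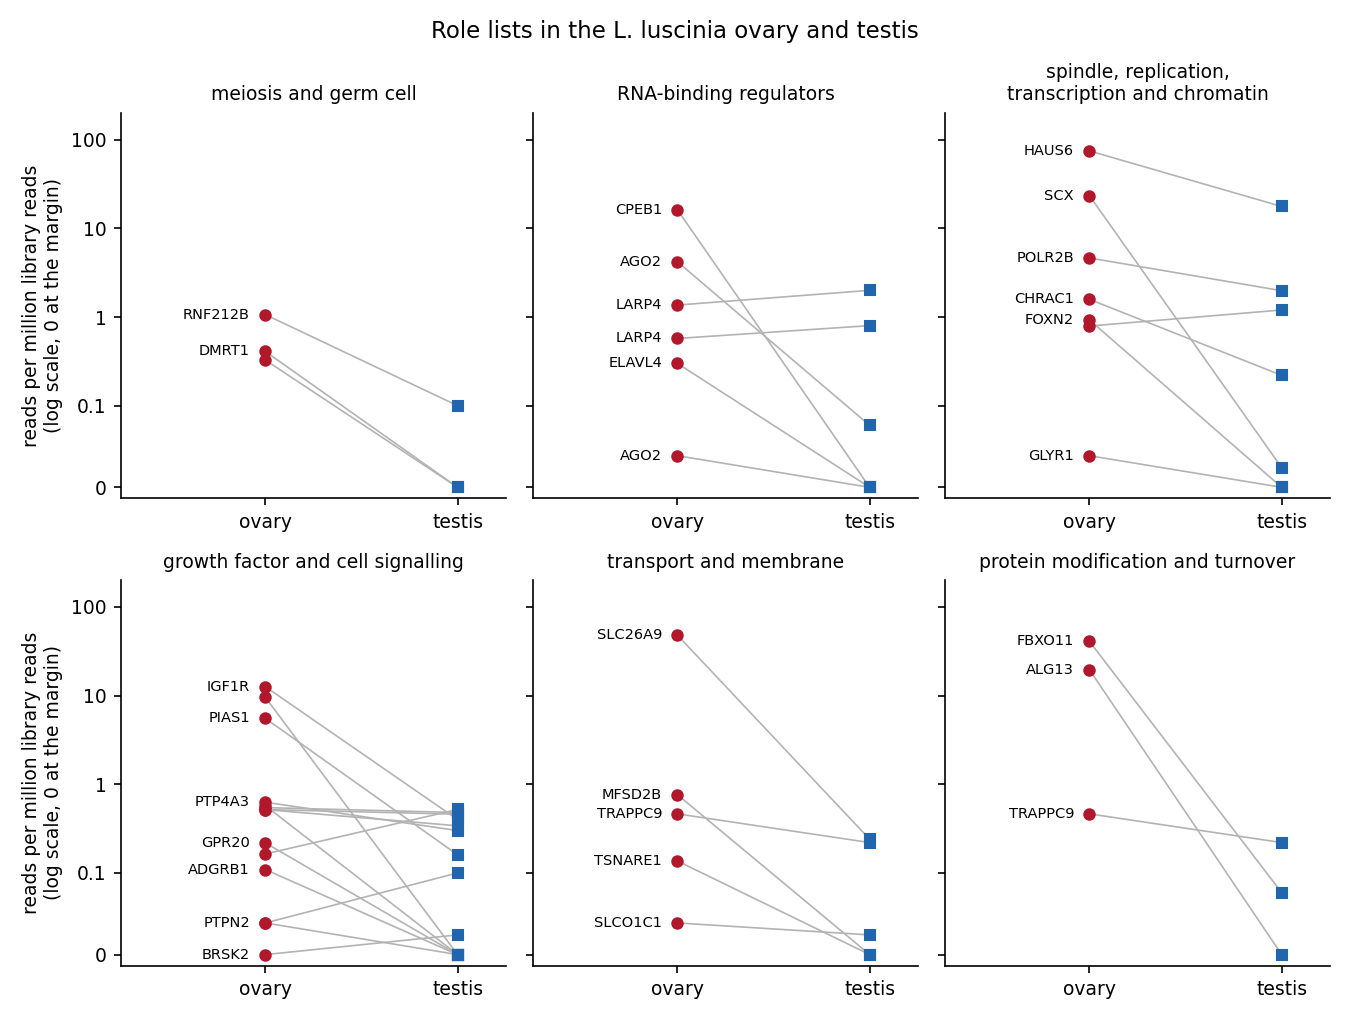
Level in RPM (y axis, log scale, 0 at the margin) in the ovary (red circles, left) and the testis (blue squares, right) for the genes of 6 role lists with recovered reads. Lines join the values of 1 identifier, and labels are left out where they would overlap. Most lines fall to the right, from HAUS6 at 74.7 and 17.6 down to genes with 0 in the testis, while LARP4, MKLN1, PAWR, PTPN2 and BRSK2 (0 and 1 read) run upward, LARP4 and MKLN1 only on this scale and not on that of reads on GRC genes.

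The testis side was led by LOC101813524, an uncharacterised gene. It had 16 reads in the ovary and 8034 in the testis, an FPKM of 0.131 in the ovary and 48.3 in the testis, and a testis over ovary ratio of 368 (227 to 644). It gave more recovered reads than any other gene in either library. LOC101822191 had 12 reads in the ovary and 3364 in the testis, a ratio of 206 (118 to 398). LOC101818220 had 51 reads in the ovary and 1832 in the testis, a ratio of 26.3 (19.9 to 35.5). LOC107603907 had 6 reads in the ovary and 1431 in the testis, a ratio of 175 (80.1 to 477). All were above 0 in the ovary too, LOC101818220 at an FPKM of 1.64 and the others at 0.131 or less.

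The highest FPKM of the testis belonged to LOC101813248, which the study describes as similar to *hydin*, a gene for a protein of the central apparatus of motile cilia and sperm tails. It had 180 reads in the ovary at an FPKM of 4.12 and 4281 reads in the testis at an FPKM of 71.9, a testis over ovary ratio of 17.4 (15.0 to 20.4). Among LOC genes with recovered reads it had the most in the ovary as well. Another *hydin*-like gene, LOC101814235, had 3 reads in the ovary and 0 in the testis. The genes numbered close to them in the flycatcher did not all share a side. LOC101811078 had 2 reads in the ovary and 425 in the testis, and LOC101821470, with no recovered reads, had an FPKM of 0.00614 in the ovary and 1.38 in the testis. LOC101821469 had an FPKM of 0.0155 in the ovary and was listed at 0 in the testis, and CAPNS2 had 0.00415 in the ovary and 0.00912 in the testis.

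Some testis genes lie next to each other on 1 flycatcher scaffold, and whether similar copies share reads was not tested. LOC101809500 had 3 reads in the ovary and 1258 in the testis, a testis over ovary ratio of 307 (105 to 1493). The next entries are the 3 identifiers of LOC101808449. XP_005062011 had 2 reads in the ovary and 237 in the testis, XP_005062010 had 2 and 436, and XP_005062012 was listed at 0 in the ovary and at an FPKM of 1.31 in the testis. LOC101815961, on another scaffold, had 1 read in the ovary and 426 in the testis, a ratio of 312 (55.8 to 12365).

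Further genes with over 100 reads in the testis showed the same side. LOC107603742 had 2 reads in the ovary and 814 in the testis, a testis over ovary ratio of 298 (82.3 to 2468). LOC101807535 had 2 reads in the ovary and 261 in the testis, LOC101809575 had 3 and 199, and LOC101817770 had 1 and 123. LOC107604463 had 0 reads in the ovary and 284 in the testis, at least 69.4-fold higher in the testis. LOC101821714 had 0 and 211 reads, at least 51.6-fold higher in the testis. LOC101812416, with under 100 reads, had 0 and 54, at least 13.2-fold higher (lower end of the counting interval 10.4). LOC107604624, in contrast, was well expressed in both tissues, with 72 reads in the ovary and 326 in the testis and a testis over ovary ratio of 3.32 (2.56 to 4.35), just under the limit.

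Only 2 named genes were counted as higher in the testis, both without recovered reads. SLC2A4RG had an FPKM of 0.00189 in the ovary and 0.0153 in the testis, and MACF1, a cytoskeletal linker, had 7.35e-06 in the ovary and 3.77e-05 in the testis. The smallest reads that fit were 1 and 11 for SLC2A4RG and 1 and 7 for MACF1. Listed in the testis alone were 23 named genes. Among them were RSPH14 (FPKM 0.0281), whose human counterpart is a radial spoke protein of cilia, and SAXO1 (0.0176), which stabilises microtubules of the axoneme. RSPH14 and SAXO1 were picked after their values were seen, without a list of cilium genes, and had no recovered reads. In *L. megarhynchos*, RSPH14 was at 0 in both gonads. SAXO1 was on the ovary side there, at an FPKM of 0.512 in the ovary and 0.139 in the testis. COL22A1, a collagen, had 0 reads in the ovary and 9 in the testis.

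Genes outside the annotated set included a few with a strong side. SOWAHB, an ankyrin repeat protein, had an FPKM of 0.317 in the ovary and 0.000679 in the testis, which needs at least 342 and 1 reads, and a ratio of 466. LOC101817233 had an FPKM of 0.323 in the ovary and 0.00323 in the testis, from at least 881 and 12 reads. It was 1 of the 3 LOC genes higher in the ovary, with LOC101816890 (30 and 1 reads) and LOC107603367 (9 and 0). ERBB4, a receptor tyrosine kinase for neuregulins, had an FPKM of 0.0107 in the ovary and 5.86e-05 in the testis, from at least 134 and 1 reads. GSPT1, the translation termination factor eRF3a, had a ratio of 9.55 from at least 7 and 1 reads. On the testis side, LOC101821108 had an FPKM of 0.0109 in the ovary and 2.97 in the testis, LOC101806394 had 0.00593 and 1.21, and LOC101807205 had 0.0360 and 1.01.

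A total of 24 genes had at least 10 reads in each tissue, and 10 of them were within 2-fold. On the scale of reads on GRC genes, 6 of the 24 changed side, LARP4 and MKLN1 among them. Over the 95 genes above 0 in both tissues, log2 FPKM in the ovary and in the testis had a Pearson r of 0.59 and a Spearman rho of 0.59. This is a description across genes, which are not replicates, and both values of a gene carry the same length and share multiplier. The 95 genes include 35 outside the annotated set. The paper reports no correlation of GRC gene expression between the tissues within a species, as a coefficient of determination, a measure unlike r. The correlation was not computed here for the annotated genes alone, and why the results differ was not tested.

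The 10 genes whose coding region was complete to 95% or more on the GRCs of both species were on both sides, at counts near the shares over all genes (18.9% in the ovary and 23.6% in the testis). CPEB1 and LOC107603367, which is similar to an endogenous retrovirus protein (*ervk-18*), were higher in the ovary. LOC107603367 rested on 9 reads in the ovary and 0 in the testis, at least 4.09-fold, with a lower end of 2.69 under the 4-fold limit. LOC101813248 and LOC107604341, an uncharacterised gene with 29 reads in the ovary and 173 in the testis, were higher in the testis. The other 6 were neither. The zinc-finger gene LOC101813323, similar to *znf239*, had 53 reads in the ovary and 110 in the testis, a ratio of 0.657 (0.464 to 0.920) that was 1.18 when scaled to the reads on GRC genes. The *ervk-25*-like genes had few reads, 6 in the ovary and 11 in the testis for LOC107604464 (XP_016161146) and 6 and 27 for LOC107604299. LOC101816049 had 1 and 4, and LOC107603709 had 1 in each tissue.

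The longest run of neighbouring genes held both one-sided genes and genes near equality. The flycatcher annotation numbers its coding sequences in order, and 22 members with 16 symbols followed each other with gaps of at most 100, from LOC101816439 through CHRAC1, AGO2, PTK2 and PTP4A3 to LOC101816890. This run was picked after its values were seen. It had 342 recovered reads in the ovary and 307 in the testis, of which LOC101821714 gave 211 in the testis. Of 21 identifiers with a ratio or bound, 3 were higher in the ovary (AGO2, CHRAC1 and LOC101816890), 1 was higher in the testis (LOC101821714) and 17 were neither. These are 14.3% in the ovary and 4.76% in the testis, beside 18.9% and 23.6% of all genes. The median log2 ratio over 13 identifiers above 0 in both tissues was 0.61, beside -0.55 over all 95 genes and 0.45 over 46 named genes. The other 4 runs with at least 5 symbols had medians of 4.97, -1.92, -5.70 and -0.55, over 2, 4, 4 and 3 identifiers. CHRAC1 and AGO2 were among the 10 highest FPKM of the ovary, at 3.85 and 2.16. The receptors GPR20 and ADGRB1 had 8 and 4 reads in the ovary and 0 in the testis, and TSNARE1 had 5 and 0.

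**Figure D4:**
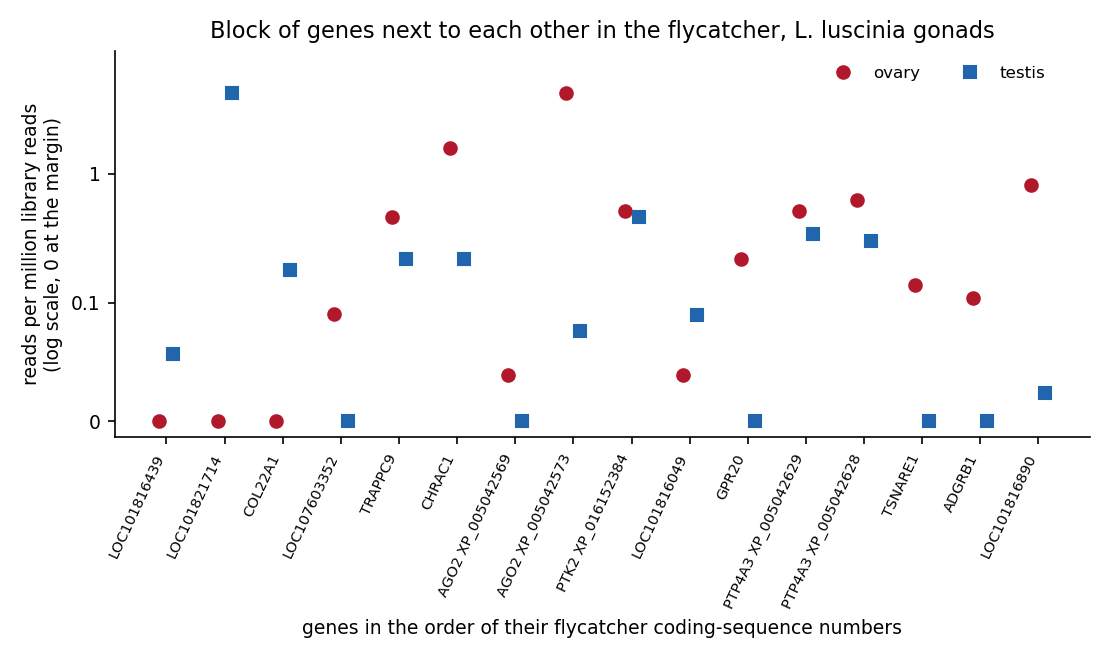
Level in RPM (y axis, log scale, 0 at the margin) of the 16 identifiers with recovered reads in the run of neighbouring genes, in the order of their flycatcher coding-sequence numbers (x axis), with the ovary as red circles and the testis as blue squares. AGO2 (4.20 in the ovary and 0.0600 in the testis) and LOC101821714 (0 in the ovary and 4.22 in the testis) are the highest values, and PTK2 (0.518 and 0.460) is near equality.

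The same genes were set beside *L. megarhynchos*, from another 2 birds, with no test between the species. Of the 180 members, 81 were above 0 in a gonad of *L. megarhynchos*, and 59 of these 81 lay on the same side of equal FPKM in both species. With at least 10 reads in each species it was 29 of 40. Of the genes higher in the *L. luscinia* ovary, 15 were above 0 in *L. megarhynchos* and 14 lay on the ovary side there. Of those higher in the *L. luscinia* testis, 22 were above 0 and 18 lay on the testis side. All these sides are on the scale of library reads. Reads on GRC genes leaned to the testis in *L. luscinia*. In *L. megarhynchos* they leaned to the ovary, with 50088 of 57644189 reads there and 9009 of 35404629 in the testis. The counts were not repeated on the scale of GRC reads.

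Of the genes with recovered reads counted as higher in the ovary, SCX, AGO2 (XP_005042573), CHRAC1, FOXN2 and RNF212B had 0 reads in both *L. megarhynchos* gonads. The others lay on the ovary side there too, EFNB1 excepted. Of the 22 members in the run of neighbouring genes with AGO2 and CHRAC1, 4 were above 0 in *L. megarhynchos*. Over all members, 99 were at 0 there. The paper reports that a large region of the *L. luscinia* GRC is lacking from the *L. megarhynchos* GRC assembly. It also reports PCR across a boundary of this region, by which the absence is not an assembly error. Whether the genes at 0 are present on the *L. megarhynchos* GRC was not tested, so a 0 there does not show a silent gene. SLC26A9 had 14192 reads in the ovary and 1 in the testis of *L. megarhynchos*, IGF2 had 6291 and 0, ALG13 had 5431 and 2, and CPEB1 had 1824 and 0. On the testis side, LOC101813524 had 2 reads in the ovary and 1031 in the testis of *L. megarhynchos*, and the *hydin*-like LOC101813248 had 12 and 347. EFNB1 was the exception among the ovary genes. With 21 reads in the ovary and 0 in the testis of *L. luscinia*, it had 187 reads in the ovary and 207 in the testis of *L. megarhynchos*. LARP4 (XP_005062131), with its ratio of 0.682 in *L. luscinia*, had 215 reads in the ovary and 1 in the testis of *L. megarhynchos*. On the scale of reads on GRC genes its *L. luscinia* ratio was 1.22.

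**Figure D5:**
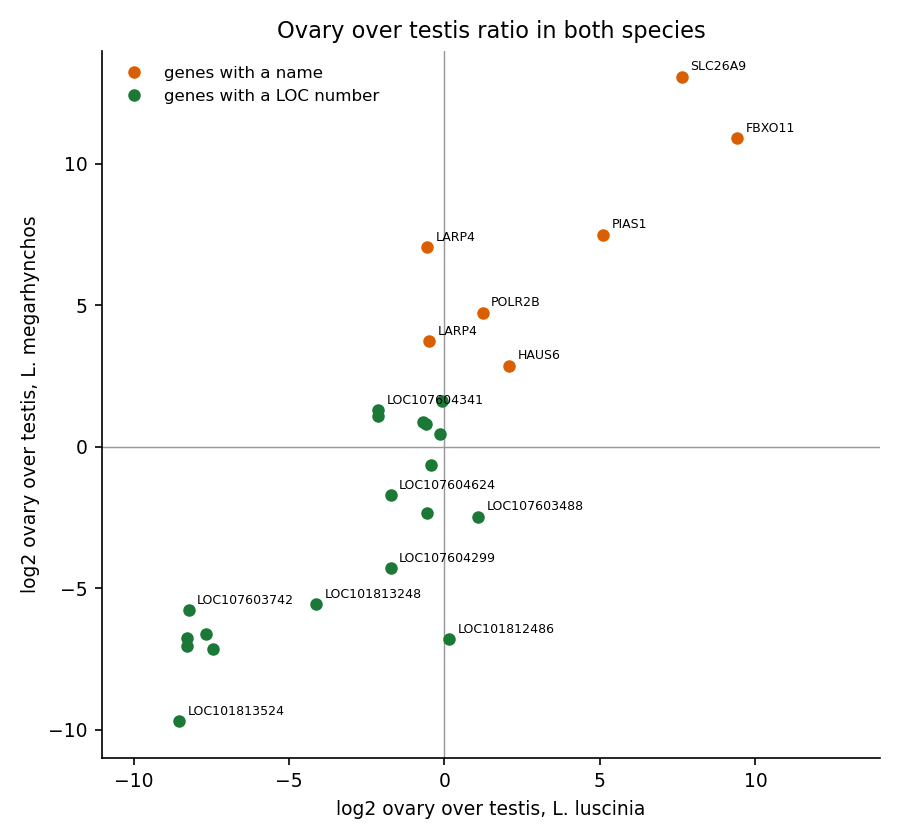
log2 ratio of ovary over testis in *L. luscinia* (x axis) and in *L. megarhynchos* (y axis) for 26 genes above 0 in all 4 libraries with at least 10 reads in each species. Points are genes, orange with a name and green with a LOC number, and 16 of the 26 lie in the lower left or upper right part, on the same side of 0 in both species. SLC26A9 and FBXO11 are at the upper right, LOC101813524 is at the lower left, and LARP4 lies high near the middle of the x axis. Both axes are on the scale of library reads, not of reads on GRC genes.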

How the data were processed

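Total RNA of 1 ovary and 1 testis of *L. luscinia* was treated with DNase, and poly(A) mRNA was made into libraries with a stranded kit and read as 150 bp single ends. Per the submitters' processing notes the reads were handled with Trimmomatic 0.39 and STAR 2.7.9a. The authors aligned them to the somatic genome together with the GRC assembly and kept uniquely mapped reads, so similar copies can lose or gain reads. Which program counted them, and whether strand was used, is not given in the sources used here. Each deposited value is an FPKM per gene. The table uses decimal commas. For 192 listed genes, coding length and share on the GRC turned every FPKM above 0 into whole reads (100% within 0.01 reads), and the method was tested on simulated data (100% of reads recovered for 94 genes in the ovary and for 92 genes in the testis). For 607 genes it could not be done. For all 60 genes where the smallest whole-read pair could be compared with recovered reads in lowest terms, they were equal.

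Members were all genes above 0 in either tissue. With 1 library a tissue no test was run. The FPKM ratio of ovary to testis was called at 4-fold, with 3 reads as the limit of a 0, and exact Clopper-Pearson 95% intervals of the read share were turned into ratio intervals, which cover counting error only. Library reads, inferred from the spacing of the FPKM values and not reported, were 36650197 in the ovary and 49987547 in the testis. Whether they count raw, trimmed or mapped reads is not known. Alternatives were other folds, scalings, filters, bounds and pseudocounts. Named genes were the 10 highest FPKM of each library, the 10 largest ratios to each side with at least 10 reads, role-list genes, genes at least 95% complete on both GRCs and, without recovered reads, the 5 highest of each library. A few others outside this rule were named after their values were seen, among them genes of the neighbouring runs, genes with a call and no recovered reads, and testis genes with over 100 reads. The members and lists were chosen with earlier results of these data known. One gene is not reported here by name and is left out of the plots by gene. Analyses used Python 3.11.15, pandas 2.3.3 and scipy 1.17.1.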

Additional observations from a re-analysis of the deposited data

Results flagged for a closer look

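For 3 genes with at least 10 reads in each species, the ratio was at least 2-fold to opposite sides in *L. luscinia* and *L. megarhynchos*. This is on the scale of library reads. Reads on GRC genes leaned to the testis in *L. luscinia*. In *L. megarhynchos* they leaned to the ovary, with 50088 of 57644189 reads there and 9009 of 35404629 in the testis. Neither scaled ratios nor counting intervals were computed for *L. megarhynchos*. By these totals, scaling moves the *L. luscinia* ratios to the ovary and the *L. megarhynchos* ratios to the testis. On the scale of GRC reads LOC107603488 thus stays on opposite sides. LOC107604341 and LOC101821786 do not, since the *L. megarhynchos* shift is larger than their ratios there, and both fall on the testis side in both species. The difference between the species was not tested, since each tissue had 1 library. LOC107604341 had 29 reads in the ovary and 173 in the testis of *L. luscinia* (ovary over testis ratio 0.229) and 16 and 4 in *L. megarhynchos* (2.46). LOC107603488 had 31 and 20 reads in *L. luscinia* (2.11) and 30 and 102 in *L. megarhynchos* (0.181). LOC101821786 had 2 and 12 reads in *L. luscinia* (0.227, counting interval 0.0247 to 1.02) and 79 and 23 in *L. megarhynchos* (2.11).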

How the results depend on the processing

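The number of genes higher in the ovary was 24 and stayed between 16 and 34 under the 10 alternatives, within 1.5 times. The number higher in the testis was 30, and it was 46 at 2-fold and 19 with at least 10 reads, while the other alternatives gave 21 to 33. The sets above 0 moved with the threshold. All members numbered 95 in both tissues, 45 in the ovary alone and 40 in the testis alone. An FPKM of at least 0.01 left 57 in both, and an FPKM of at least 0.1 left 21, 21 and 25. Genes with recovered reads numbered 60 in both, 21 in the ovary alone and 11 in the testis alone. Over these genes, a limit of at least 3 recovered reads gave 41, 18 and 21. With the testis thinned to the depth of the ovary, over the same genes, 58.8, 22.2 and 10.3 were expected. The median log2 ratio of -0.55 turned to 0.29 when scaled to reads on GRC genes and to 0.45 without LOC genes. The share of recovered reads in the top genes was 88.1% in the ovary and 87.6% in the testis for 10 genes instead of 5. The correlation of 0.59 was 0.43 at an FPKM of at least 0.1 in both tissues (21 genes) and 0.80 without LOC genes (46 genes). The cause of these changes was not tested, beyond the smaller sets of genes that the filters leave. No paired analysis was possible because each tissue had 1 library and the ovary and the testis came from different birds.

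Depth limits the low genes. Of 33 genes with recovered reads in both tissues that met neither condition, 19 had a counting interval reaching past 4-fold. Over all genes with recovered reads, those with a 0 included, the interval reached below 4-fold for 5 of 20 higher in the ovary (HAUS6, CHRAC1, SYCP1, ELAVL4 and LOC107603367) and for 3 of 20 higher in the testis (LOC107604341, LOC101821786 and LOC107603614). Differences between birds were not measured.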
